A study of Mus musculus with 7 samples.

Results

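The islet hormone and granule genes described here are 8 genes chosen by name: the hormone genes Gcg, Sst, Ppy and Iapp, and the granule genes Chga, Chgb, Pcsk1 and Pcsk2. Of these, 7 have a row among the 33864 genes listed in the 3 count tables, and Gcg was not analysed here. The data are single-cell counts of dissociated whole pancreas from 7 mice, 1 library per mouse, all C57BL/6 and labelled as 2 months old. The 2 WT mice were wild type and received doxycycline at 1 mg/ml in the drinking water for 7 days. The 3 i4F mice received the same doxycycline and carried the i4F-B genotype, a doxycycline-inducible cassette of the reprogramming factors Oct4, Sox2, Klf4 and Myc inserted in the Pparg gene, with the rtTA activator in the Rosa26 locus, both heterozygous. The 2 caerulein mice were wild type and received 7 hourly injections of the cholecystokinin analogue caerulein at 100 µg/kg on each of 2 consecutive days, and were killed on day 4 after the first injection. Doxycycline is not named as a treatment of the caerulein mice, so their comparison with WT also differs in doxycycline as labelled. Mice of both sexes were used in the study, and the sex of each mouse is not given in the sources used here. The cassette is ubiquitous, so it could be active in any pancreatic cell, islet cells included.

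Islets of Langerhans are small groups of endocrine cells scattered among the exocrine acinar and ductal cells. Each endocrine cell type makes a main peptide hormone, which is cut from a larger precursor and stored in dense-core granules until a signal such as glucose releases it. Gcg encodes glucagon (alpha cells), Sst somatostatin (delta cells), Ppy pancreatic polypeptide (PP cells, also called gamma cells) and Iapp islet amyloid polypeptide, which beta cells store with insulin. Chromogranin A (Chga) and chromogranin B (Chgb) are acidic proteins that help to form the granule core, and the prohormone convertases PC1/3 (Pcsk1) and PC2 (Pcsk2) cut the hormone precursors at paired basic residues.

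All 8 genes are protein coding and lie at the following places in GRCm38 (mm10), by the GENCODE annotation. Gcg lies at chr2:62474530-62483650 on the minus strand, Sst at chr16:23889573-23890958 (minus), Ppy at chr11:102099930-102101319 (minus) and Iapp at chr6:142298423-142303961 (plus). Chga lies at chr12:102554969-102565028 (plus), Chgb at chr2:132781278-132795079 (plus), Pcsk1 at chr13:75089826-75134861 (plus) and Pcsk2 at chr2:143546156-143816285 (plus). Iapp overlaps Slco1a5 and Pcsk2 overlaps the antisense genes Pcsk2os1 and Pcsk2os2, each on the opposite strand, and whether strand was used in counting is not given in the sources used here. Slco1a5 had 361 UMIs (unique molecular identifiers, each 1 counted transcript) in all cells and Pcsk2os1 had 259.

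Several of these genes share a short promoter element, the cyclic AMP response element (CRE), which is known from the somatostatin promoter as the site bound by CREB. It is shown here because it is a feature of sequence that the choice of the genes did not use. The 250 bases before the start of each gene were searched on both strands for the full element TGACGTCA and for its first 5 letters TGACG, which every full element also holds. The stretches below come from RefSeq on GRCm38.p6, are written 5′ to 3′ on the strand of the gene, and have the matched letters in capitals. They lie at chr16:23890874-23890903 (minus), chr12:102554886-102554915 (plus), chr2:132781559-132781588 (plus) and chr13:75089768-75089797 (plus) in that order.
Sst: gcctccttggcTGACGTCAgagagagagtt
Chga: gggcggtcctaTGACGtaatttcctgggtg
Chgb: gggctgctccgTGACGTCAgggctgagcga
Pcsk1: ccaggtagatcTGACGTCAagagatggctt
The full element was present in Sst, Chgb and Pcsk1, which is 3 of the 8 genes, and in 1.55% of 32851 promoters of the same length (508 promoters). Its first base lay 48 bases before the start in Sst, 72 in Chgb and 78 in Pcsk1. Chga held the 5-letter form, 44 bases before its start. The 5-letter form was present in 5 of the 8 genes, Pcsk2 beside these 4, and in 17.8% of all promoters. By GENCODE the stretches of Sst and Chgb also lie in an annotated exon of the same gene, because other transcripts start further upstream. These matches describe the letters in the window, and no binding was measured.

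Depth differed between the mice. The libraries held 4327 to 15138 cells and 15469018 to 64784216 UMIs, with a median of 1248.5 to 4247 UMIs per cell. Of the 58107 barcodes, 366 occurred in more than 1 library, and no endocrine cell shared its barcode with another endocrine cell. The deposited clusters named endocrine held 569 of the 58473 cells, with 7 of 7 listed pan-endocrine markers (Chga, Chgb, Scg2, Pcsk1n, Isl1, Neurod1, Cpe) summing to 12476 to 39483 CPM there, against 15.0 to 83.9 CPM in the other cells. Chga and Chgb are also among the genes described here, so this sum is not separate from them. CPM is the number of UMIs of a gene per 1000000 UMIs of the cells summed. The pancreas of i4F 3 stood apart from those of i4F 1 and i4F 2, and it had the lowest median of UMIs per cell (1248.5). Its all-cell levels of the 7 genes were 10.2 to 54.5 times the mean of the other 2 i4F mice, so results are given with and without it.

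Summed over all cells of each mouse, the 7 listed genes were highest in both WT mice and lower in every i4F and every caerulein mouse. Among the hormone genes, Iapp was at 6154 and 6579 CPM in WT 1 and WT 2, at 137, 152 and 2097 CPM in i4F 1, i4F 2 and i4F 3, and at 281 and 661 CPM in caerulein 1 and caerulein 2. Sst was at 1264 and 1189 CPM in the WT mice, at 3.70, 9.22 and 352 CPM in the i4F mice, and at 5.53 and 30.4 CPM in the caerulein mice. Ppy was at 488 and 732 CPM in the WT mice, at 4.77, 14.8 and 398 CPM in the i4F mice, and at 9.12 and 136 CPM in the caerulein mice. No i4F or caerulein mouse reached the lower WT mouse for any of the 3 hormones, and i4F 3 and caerulein 2 were the higher mice of their groups each time.

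The granule genes had the same order. Chga was at 699 and 1134 CPM in the WT mice, at 17.0, 39.1 and 287 CPM in the i4F mice, and at 27.6 and 63.8 CPM in the caerulein mice. Chgb was at 135 and 172 CPM in the WT mice, at 3.88, 6.22 and 58.6 CPM in the i4F mice, and at 6.90 and 15.9 CPM in the caerulein mice. Both chromogranins were therefore lower in every i4F and caerulein mouse than in either WT mouse. The convertase Pcsk1 was at 17.7 and 19.7 CPM in the WT mice, at 0.281, 0.450 and 4.20 CPM in the i4F mice, and at 0.787 and 2.16 CPM in the caerulein mice. Pcsk2 was at 147 and 136 CPM in the WT mice, at 3.95, 5.56 and 58.9 CPM in the i4F mice, and at 5.22 and 13.2 CPM in the caerulein mice. Neither convertase overlapped between WT and the other groups. All 7 genes thus had both WT mice above every i4F mouse and above every caerulein mouse, and so did 41.7% of the 18340 genes tested for i4F and 52.1% for caerulein.

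**Figure D1:**
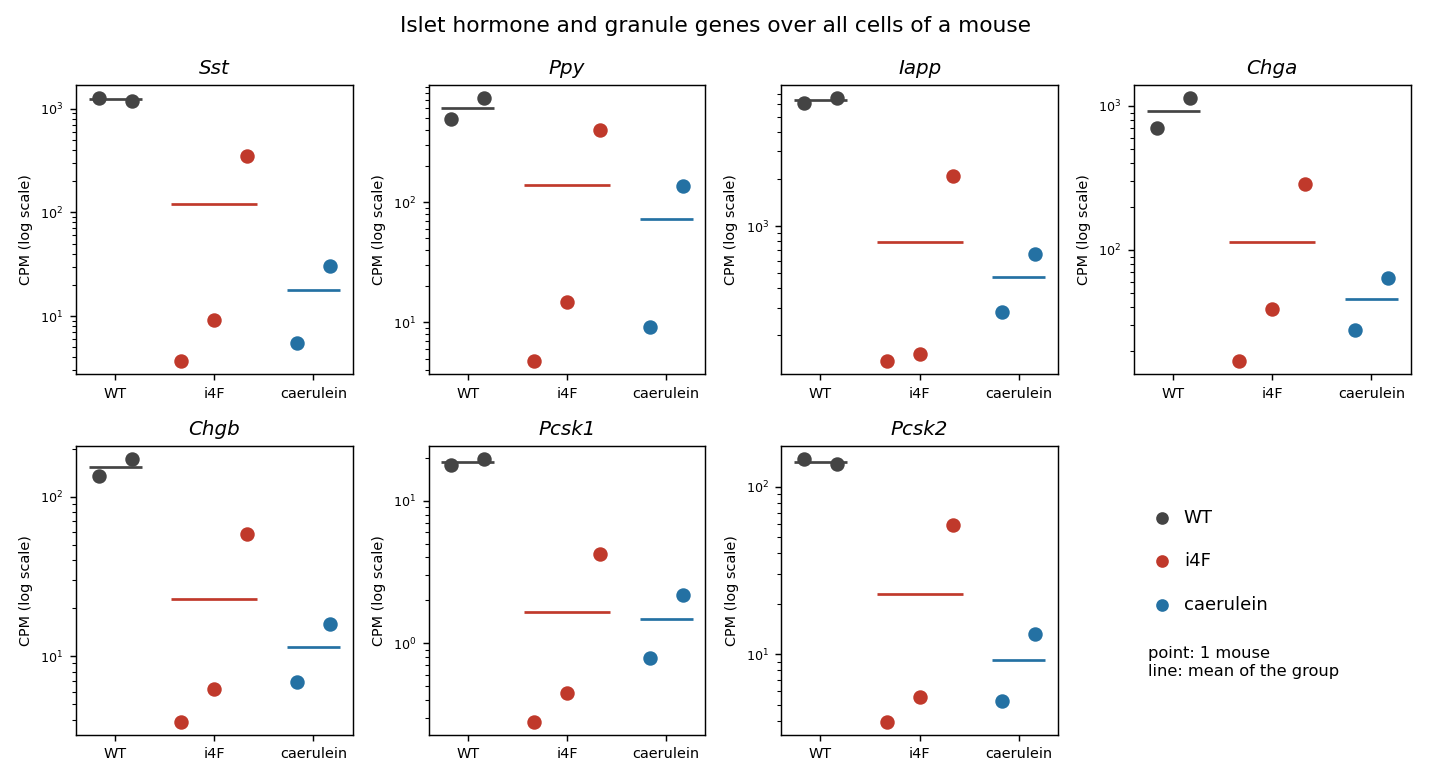
Level of each of the 7 listed genes over all cells of a mouse, in CPM on a log axis, with 1 point per mouse and a line at the group mean. In every panel the 2 WT points lie above all i4F and caerulein points, and the highest i4F point is i4F 3 (for Iapp 2097 CPM, against 137 and 152 CPM in the other i4F mice).

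The ratio of the WT mean to the i4F mean ranged from 4.38 for Ppy to 11.4 for Pcsk1, and it was 10.1 for Sst and 8.0 for both Iapp and Chga. Without i4F 3, the ratio ranged from 29.7 for Pcsk2 to 190 for Sst, so that 1 mouse set most of the i4F mean. By edgeR's quasi-likelihood test (two-sided, Benjamini-Hochberg adjusted over 18340 genes), the log2 fold change of i4F against WT was -2.96 (SE 1.73, adjusted p = 0.253) for Sst, -2.63 (SE 1.18, adjusted p = 0.163) for Iapp, -2.65 (SE 1.1, adjusted p = 0.143) for Chga and -3.24 (SE 1.11, adjusted p = 0.0997) for Pcsk1. None of the 7 genes was called at an adjusted p under 0.05, where 0.0% of all genes tested were called lower and 0.0% in either direction. At an unadjusted p under 0.05 there were 2 of the 7, Chga and Pcsk1, beside 6383 of all genes, and DESeq2 called 2 of the 7, beside 4351 of all genes. Without i4F 3 all 7 were called lower, beside 9543 genes called in either direction. Because i4F 3 stood apart in the levels of these same genes, calls made without it depend on the outcome and are a description only. In these sums alone, fewer endocrine cells and less RNA per endocrine cell cannot be told apart, and the number and depth of hormone-rich cells are given separately.

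The ratio of the WT mean to the caerulein mean ranged from 8.38 for Ppy to 68.4 for Sst, with 13.5 for Iapp and 15.4 for Pcsk2. It depended on the mouse: without caerulein 1 it ranged from 4.47 for Ppy to 40.4 for Sst, with 9.63 for Iapp, and without caerulein 2 from 22.3 for Chgb to 222 for Sst, with 22.7 for Iapp. The log2 fold change of caerulein against WT was -5.77 (SE 2.30, edgeR adjusted p = 0.117) for Sst, -3.40 (SE 1.41, adjusted p = 0.126) for Iapp and -3.99 (SE 1.36, adjusted p = 0.0871) for Chga. None of the 7 was called by edgeR, where 3.94% of all genes were called lower and 9.08% in either direction. At an unadjusted p under 0.05 there were 6 of the 7 (all but Ppy), beside 7130 of all genes, and DESeq2 called 4, beside 5484 of all genes. In a fit of these 2 groups alone, and in a fit without i4F 3, 6 of the 7 were called lower (the call without i4F 3 again a description), beside 8024 and 8909 genes called in either direction. The i4F mice enter this comparison through the shared estimate of spread, the TMM normalisation and the filter on low counts, and both comparisons use the same WT mice. The libraries fall into 2 series by name: within the series of WT 1 and the i4F mice the ratio for Iapp was 7.73 (42.5 without i4F 3), and within the series of WT 2 and the caerulein mice it was 14.0.

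Other genes of the secretory pathway were counted from lists. Of 17 genes of granules and exocytosis, all tested over all cells, none was called in i4F (median log2 fold change -1.82, against 0.04 for all genes tested), and 2 fell in caerulein (median -2.70, against -0.06), where 3.94% of all genes were called lower. These were Cadps, which primes dense-core granules for release, with a log2 fold change of -3.57 (SE 0.72, edgeR adjusted p = 0.0412), and Snap25, a part of the membrane fusion machinery, with -3.29 (SE 0.76, adjusted p = 0.0484). Of 16 islet transcription factors 13 were tested, and of 8 genes of beta cell metabolism and secretion 7, with none called in either comparison. Their medians were -2.28 and -2.72 in i4F and -2.95 and -3.30 in caerulein. Of 11 other peptide hormone genes and of 11 receptor genes 7 each were tested and none was called, with medians of -1.61 and -1.48 in i4F and of -0.17 and -2.32 in caerulein.

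Most UMIs of the listed genes came from the endocrine clusters, to a degree that differed between mice. Per the methods of the study, clusters were named by their markers, and Iapp, Chga, Ppy and Sst were among the leading genes of the endocrine ones. A high share thus follows in part from how the clusters were made. For Sst the share of UMIs in those clusters was 92.5 to 99.7% in WT, 64.7 to 99.5% in i4F and 82.5 to 97.5% in caerulein. For Ppy it was 94.6 to 99.7% in WT, 90.7 to 98.9% in i4F and 99.2 to 99.4% in caerulein. For Iapp the share was 97.3 to 98.5% in WT, 96.2 to 97.5% in i4F and 98.1 to 99.4% in caerulein. For Chga it was 98.2 to 98.8% in WT and 95.7 to 97.0% in i4F. For Pcsk1 the share was 97.7 to 97.8% in WT, 52.9 to 88.2% in i4F and 68.6 to 91.9% in caerulein. Its mean level outside these clusters was not higher in i4F or caerulein, at 0.452 CPM in WT, 0.260 CPM in i4F and 0.212 CPM in caerulein. The i4F shares of Pcsk1 rest on 17, 17 and 65 UMIs.

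To count the producing cells without using the cluster labels, a hormone-rich cell was set as one with at least 10 UMIs of Sst, Ppy and Iapp together that also made up at least 1% of its UMIs. WT 1 held 75 such cells (1.73% of its cells, exact 95% binomial interval 1.37 to 2.17%) and WT 2 held 135 (2.13%, 1.79 to 2.52%). The i4F mice held 31 (0.316%), 25 (0.304%) and 64 (0.841%), and the caerulein mice 42 (0.277%) and 61 (0.867%). Every i4F and caerulein mouse thus lay below both WT mice, and the intervals cover counting error only. The hormone-rich cells were also shallower outside WT, with a median of 9246 and 7248 UMIs per cell in WT, 2836, 2928 and 3720.5 in i4F, and 2805.5 and 1204 in caerulein. Over non-immune cells the median was 2574.5 and 2915 UMIs in WT, 8833, 6280 and 1295.5 in i4F, and 5883 and 2704 in caerulein, and only i4F 3 lay below both WT mice. That median mixes cell types. Ductal cells had a median of 5396 and 4624 UMIs in WT, 4187, 2667 and 2672 in i4F, and 5590 and 2768 in caerulein. Every i4F mouse and caerulein 2 thus lay below WT in ductal cells too. Acinar cells went the other way, at 431 and 502 UMIs in WT and 606 to 2213.5 in the other mice. The part of the depth of hormone-rich cells in their counts and in the levels within them was not tested.

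The mean share was 1.93% ± 0.28 (SD, n = 2) in WT, 0.487% ± 0.306 (n = 3) in i4F and 0.572% ± 0.417 (n = 2) in caerulein. The difference of i4F from WT was -1.45 percentage points, a ratio of 3.97, with p = 0.2 in an exact two-sided permutation test, the smallest p that 3 against 2 mice allow. Without i4F 3 the ratio was 6.24. The difference of caerulein from WT was -1.36 percentage points, a ratio of 3.38, with p = 0.33 in the same exact test, again the smallest possible. The ratio was 6.97 without caerulein 2 and 2.23 without caerulein 1.

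The denominators also moved. Immune cells made up 8.47% of all cells in WT, 42.6% in i4F and 51.4% in caerulein as means over mice, with ranges that did not overlap between WT and the other groups (highest WT mouse 11.8%, lowest other mouse 37.2%). As a share of non-immune cells, hormone-rich cells were at 1.83 and 2.40% in WT, 0.531, 0.588 and 1.34% in i4F, and 0.644 and 1.58% in caerulein. The ratio of means on that base was 2.58 for i4F and 1.90 for caerulein, and the WT mice stayed above all others. Of acinar, ductal and hormone-rich cells together, hormone-rich cells were 4.46 and 8.08% in WT, 2.35 to 3.59% in i4F and 2.19 and 4.38% in caerulein, so on this base caerulein 2 came close to WT 1.

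**Figure D2:**
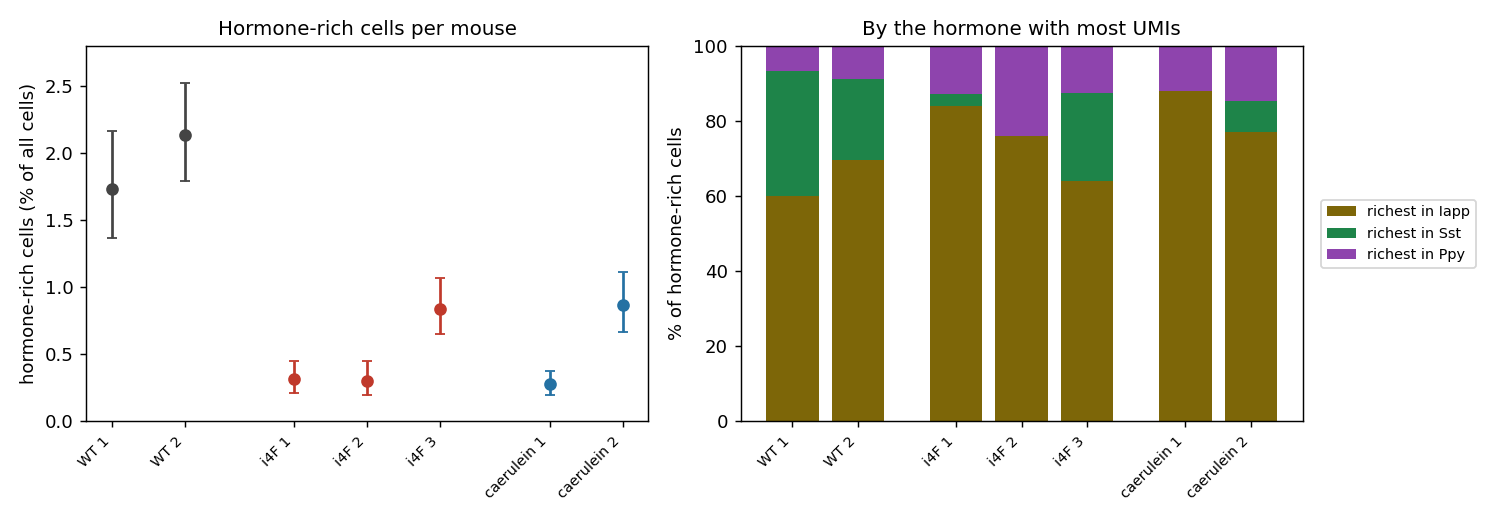
Left, hormone-rich cells as percent of all cells of each mouse, with exact 95% binomial intervals. Right, the same cells split by the hormone with most UMIs, as percent of the hormone-rich cells of the mouse. The WT mice lie at 1.73 and 2.13% and the others at 0.277 to 0.867%, and cells richest in Sst are 33.3 and 21.5% of the WT cells but absent in i4F 2 and caerulein 1.

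The hormone-rich cells were also counted by the hormone with most UMIs. Cells richest in Iapp numbered 45 and 94 in WT, 26, 19 and 41 in i4F, and 37 and 47 in caerulein. Cells richest in Sst numbered 25 and 29 in WT, 1, 0 and 15 in i4F, and 0 and 5 in caerulein. Cells richest in Ppy numbered 5 and 12 in WT, 4, 6 and 8 in i4F, and 5 and 9 in caerulein. As a share of hormone-rich cells, those richest in Sst were 33.3 and 21.5% in WT, 3.23, 0 and 23.4% in i4F, and 0 and 8.20% in caerulein. Both caerulein mice and i4F 1 and i4F 2 lay below WT, whereas i4F 3 lay between the WT mice. The split by kind was not tested.

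Outside the endocrine clusters lay 10 hormone-rich cells, 5 of them in WT 2. Of the 423 within the clusters, 322 passed the 1% threshold for 1 hormone, 32 for 2 and 69 for all 3. Within a mouse, cells that passed for several hormones had a lower median of UMIs than those that passed for 1 in 5 of 7 mice, such as 6450 against 9699.5 UMIs in WT 1 and 2912 against 4075 UMIs in i4F 3. The median was slightly higher in i4F 2 (2993 against 2928 UMIs) and caerulein 1 (2832 against 2779 UMIs), and barcodes that could hold more than 1 cell were not removed here. In WT 1, i4F 1 and i4F 2 lowering the threshold to 0.5% of UMIs gave 78, 35 and 25 cells, and raising it to 5% gave 71, 20 and 16.

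Among WT endocrine cells the granule genes divided along with the hormones. The WT cells were deposited as 2 endocrine clusters, and 133 of 133 cells of the first were richest in Iapp. The second held 146 cells, of which 50 were richest in Sst, 17 in Ppy and 5 in Iapp, and 74 were not hormone-rich. Because the hormones set these kinds, their levels are given as a description, pooled over both WT mice, with no test.

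Pcsk1 was highest in the cells richest in Iapp, with 663 UMIs (492 CPM) in 138 cells. It had 24 UMIs (76.4 CPM) in 50 cells richest in Sst, 0 UMIs in 17 cells richest in Ppy, where 3 counts would be 37.5 CPM, and 1 UMI in the 74 cells that were not hormone-rich. Pcsk2 was present in all 4 kinds, at 2151, 1782, 2803 and 3891 CPM in the same order. Chga was highest in the cells richest in Iapp (21165 CPM) and lower in those richest in Sst (6238) or Ppy (5769) and in the cells that were not hormone-rich (9618). Chgb was highest in the cells richest in Sst (5197 CPM), against 2630 CPM in those richest in Iapp, 2077 CPM in those richest in Ppy and 936 CPM in the rest.

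Other genes sorted with these kinds. Ucn3 (665 CPM), G6pc2 (878 CPM), Slc2a2 (664 CPM), Mafa (344 CPM) and Nkx6-1 (318 CPM), all known from beta cells, were highest in cells richest in Iapp, and Ucn3 and G6pc2 had 0 UMIs in the other kinds. Hhex, a transcription factor of delta cells, was at 204 CPM in cells richest in Sst and at 0 to 50.1 CPM in the others. Pyy, a peptide of the same family as Ppy, was at 62554 CPM in cells richest in Ppy, 47085 CPM in cells richest in Sst, 13954 CPM in the cells that were not hormone-rich and 3013 CPM in those richest in Iapp. The 74 cells that were not hormone-rich held the highest levels of Ttr (61240 CPM) and Slc38a5 (71.2 CPM, 27 UMIs), both on the list of alpha cell markers. Slc38a5 was close to this in cells richest in Sst (60.5 CPM, 19 UMIs). Irx2, another gene of that list, was at 52.7 CPM in the cells that were not hormone-rich and at 87.6 CPM in cells richest in Ppy.

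**Figure D3:**
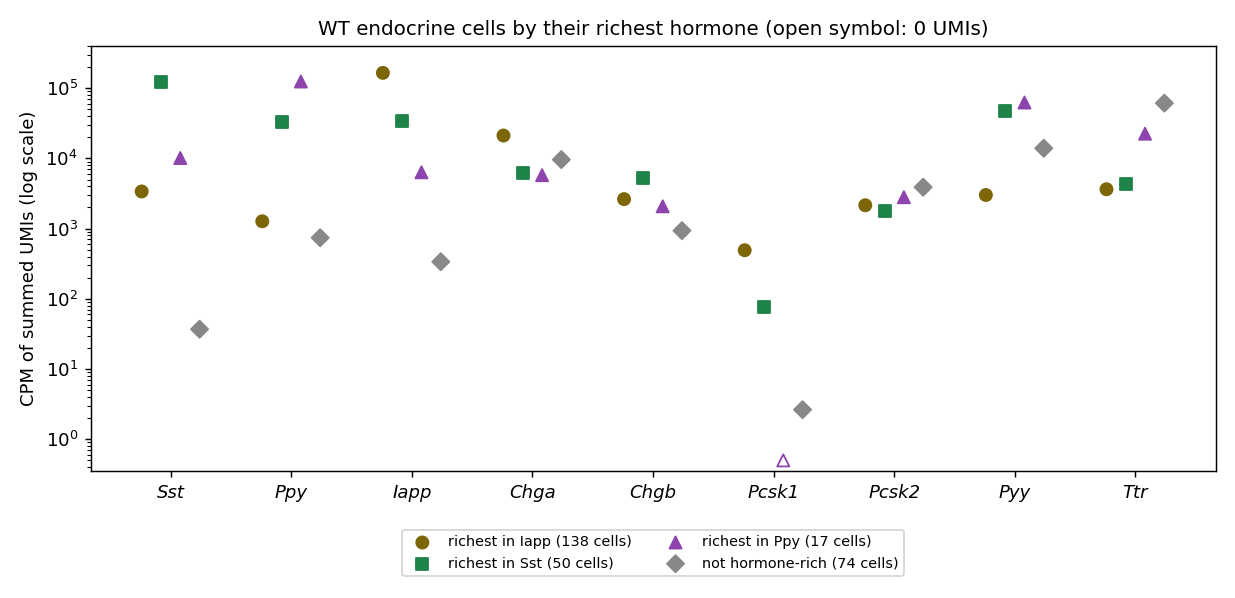
Levels of the 7 listed genes, Pyy and Ttr in the endocrine cells of both WT mice, pooled by richest hormone, in CPM on a log axis, with an open symbol for 0 UMIs. Pcsk1 falls from 492 CPM in cells richest in Iapp to 2.64 CPM in cells that are not hormone-rich, whereas Pcsk2 stays between 1782 and 3891 CPM in every kind.

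Across 92 sums of at least 20 cells (a deposited cluster in 1 mouse), of which 9 were endocrine, the gene outside the list of 8 whose level was most like that of each of the 7 was named. The measure was Pearson's r of log2(CPM + 1), which here mainly separates endocrine from other sums, and clusters of a mouse share its library. With the listed genes themselves left out, Resp18, an endocrine secretory protein, was closest to Chga (r = 0.95), Ppy (0.94) and Sst (0.94). Scg2, another granin, was closest to Iapp (0.93), and Neurod1, an islet transcription factor, was closest to Chgb (0.97). Cltrn was closest to Pcsk2 (0.96) and Pnmal1 to Pcsk1 (0.95). Some pairs within the list had a higher r than these genes, namely Chgb with Pcsk2 (0.97), Iapp with Chga (0.94) and Sst with Ppy (0.94).

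Within the endocrine clusters the differences between groups were far smaller than over all cells. Iapp was at 115110 and 107000 CPM in WT, at 54690, 48693 and 86856 CPM in i4F, and at 103915 and 114920 CPM in caerulein. All 3 i4F mice lay below WT, and the caerulein mice overlapped WT. Sst was at 23941 and 18374 CPM in WT, at 978, 2868 and 15087 CPM in i4F, and at 2031 and 4376 CPM in caerulein, with no overlap between WT and either group. Ppy was at 9232 and 11566 CPM in WT, at 1767, 4690 and 16941 CPM in i4F, and at 3411 and 23700 CPM in caerulein, so that it overlapped in both.

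Among the granule genes of the endocrine clusters, Pcsk1 was at 329 and 322 CPM in WT, at 60.7, 132 and 156 CPM in i4F, and at 204 and 348 CPM in caerulein. Every i4F mouse lay below WT, at less than the lower caerulein mouse, and caerulein overlapped WT. Chga was at 13109 and 18601 CPM in WT, at 6710, 12609 and 11846 CPM in i4F, and at 10227 and 11104 CPM in caerulein, which put all 5 below WT. Chgb was at 2532 and 2797 CPM in WT, at 1484, 1909 and 2461 CPM in i4F, and at 2567 and 2761 CPM in caerulein. Pcsk2 was at 2757 and 2200 CPM in WT, at 1497, 1733 and 2447 CPM in i4F, and at 1932 and 2249 CPM in caerulein. Chgb lay lower in i4F by a narrow margin and overlapped between caerulein and WT, and Pcsk2 overlapped in both comparisons. Both WT mice thus lay above every i4F mouse for 5 of the 7 genes, as for 15.7% of the 3437 genes tested, and above both caerulein mice for 2 of the 7 (Sst and Chga), as for 23.0% of genes.

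**Figure D4:**
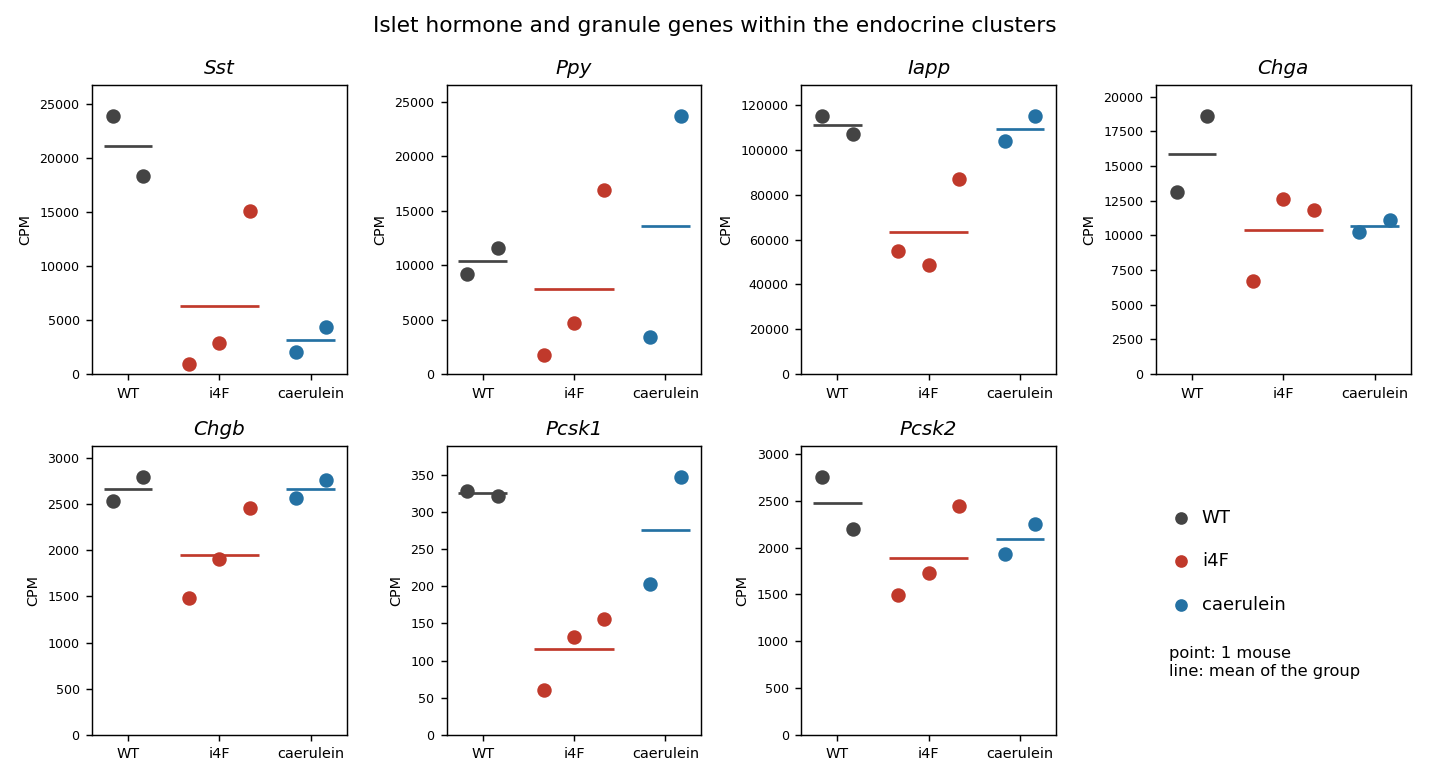
Levels of the 7 listed genes within the deposited endocrine clusters, in CPM on linear axes from 0, with 1 point per mouse and a line at the group mean. The 3 i4F points for Pcsk1 lie at 60.7 to 156 CPM, below the WT points at 329 and 322 CPM. For Iapp, caerulein 2 (114920 CPM) lies between the WT points and caerulein 1 (103915 CPM) lies just below them.

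In the endocrine clusters edgeR called none of the 7 genes in either comparison, over 3437 genes tested, where 0.116% of genes were called lower in i4F (0.727% in either direction) and 0.0291% in caerulein (1.13%). In i4F, 1 of the 7 had an unadjusted p under 0.05: Pcsk1, with a log2 fold change of -1.44 (SE 0.37, unadjusted p = 0.00253, adjusted p = 0.123), beside 463 of all genes. In caerulein it was Sst, with -2.70 (SE 1.0, unadjusted p = 0.0221, adjusted p = 0.438), beside 307 of all genes, and DESeq2 called none in either. Here too i4F 3 was the highest i4F mouse for each of the 7 genes but Chga. Without it, edgeR called Pcsk1 and Sst lower in i4F and Sst lower in caerulein, beside 184 and 63 of all genes called, and this is a description for the reason given above. WT cells form 2 of these clusters and each other group forms 1, and the share of cells richest in Sst differed between the mice as given above.

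The choice of hormone-rich cells used the UMIs of the hormones and not those of the 4 granule genes. Granule gene levels still differed with the richest hormone in WT, as given above, so they are not independent of that choice. In hormone-rich cells Pcsk1 was at 396 and 366 CPM in WT (290 and 397 UMIs), at 91.7, 174 and 207 CPM in i4F (9, 15 and 56 UMIs), and at 252 and 369 CPM in caerulein (34 UMIs each). The i4F mice again lay below WT without overlap, while caerulein 2 reached WT. Chga was at 14340 and 18990 CPM in WT, at 7805, 14479 and 13892 CPM in i4F, and at 11553 and 11276 CPM in caerulein. Chgb ranged from 1946 to 3035 CPM and Pcsk2 from 1449 to 2484 CPM over all 7 mice, and i4F overlapped WT for both. For 1 of the 4 (Pcsk1) both WT mice lay above every i4F mouse, as for 14.8% of the 2738 genes tested, and for 1 (Chga) above both caerulein mice, as for 22.1%.

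Of the 4 granule genes, edgeR called none in hormone-rich cells in either comparison, over 2738 genes tested, where 0.0% were called lower in i4F (0.256% in either direction) and 0.0% in caerulein (0.219%). For Pcsk1 in i4F the log2 fold change was -1.23 (SE 0.34, unadjusted p = 0.00493, adjusted p = 0.245), the only unadjusted p under 0.05 among them, beside 297 of all genes. In caerulein none had an unadjusted p under 0.05, beside 244 of all genes, and Pcsk1 was at -0.30 (SE 0.37, adjusted p = 0.861) and Chga at -0.54 (SE 0.35, adjusted p = 0.702). DESeq2 called none in either comparison. Genes of the pathway lists also had no call in hormone-rich cells, with medians for the 15 tested genes of granules and exocytosis of -0.41 in i4F and -0.22 in caerulein, against 0.03 and 0.02 for all genes tested.

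The hormone-rich cells were further restricted to those richest in Iapp. Of these, 1 cell of WT 2, 2 of i4F 1 and 1 of i4F 3 lay outside the endocrine clusters, and the others lay inside them. There Pcsk1 was at 525 and 451 CPM in WT (283 and 380 UMIs), at 105, 207 and 286 CPM in i4F (9, 15 and 54 UMIs), and at 271 and 431 CPM in caerulein (33 UMIs each). All i4F and caerulein mice lay below WT here. For Pcsk1 the exact Poisson interval was 47.8 to 199 CPM in i4F 1. In caerulein 2 it was 297 to 606 CPM, which holds both WT values. The intervals cover counting error only. In these cells the log2 fold change of Pcsk1 was -1.24 in i4F (edgeR adjusted p = 0.247) and -0.48 in caerulein (adjusted p = 0.800). None of the 4 granule genes was called, where 0.0% of 2516 genes were called lower and 0.199% in either direction, in each comparison. At an unadjusted p under 0.05 there was Pcsk1 in i4F, beside 293 of all genes, and none in caerulein, beside 249, and DESeq2 called none of the 4, beside 55 and 42 genes.

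Pcsk2 in cells richest in Iapp was at 2506 and 1851 CPM in WT, at 1685, 1062 and 2174 CPM in i4F, and at 1859 and 2144 CPM in caerulein, and it overlapped between the groups. The number of Pcsk2 UMIs per Pcsk1 UMI was 4.77 and 4.10 in WT, 16.1, 5.13 and 7.61 in i4F, and 6.85 and 4.97 in caerulein. The ratio was lowest in the 2 WT mice, with caerulein 2 and i4F 2 close to WT 1. The values of caerulein 2 and i4F 2 rest on 33 and 15 Pcsk1 UMIs, and that of 16.1 in i4F 1 on 9. Chga was at 17541 and 22735 CPM in WT, at 7612, 14414 and 16135 CPM in i4F, and at 12060 and 12746 CPM in caerulein, all below WT. Of the 4 granule genes, Pcsk1 and Chga thus lay below WT in every mouse of both groups, as did 14.2% of the 2516 genes tested for i4F and 23.0% for caerulein. Chgb was at 2260 and 2769 CPM in WT, at 1987, 2290 and 2940 CPM in i4F, and at 2953 and 3007 CPM in caerulein. It overlapped between i4F and WT, and both caerulein mice lay above both WT mice, as for 21.7% of the genes tested. Iapp itself, which chose these cells, was at 179023 and 151320 CPM in WT, at 94187, 75491 and 155342 CPM in i4F, and at 145531 and 145229 CPM in caerulein.

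**Figure D5:**
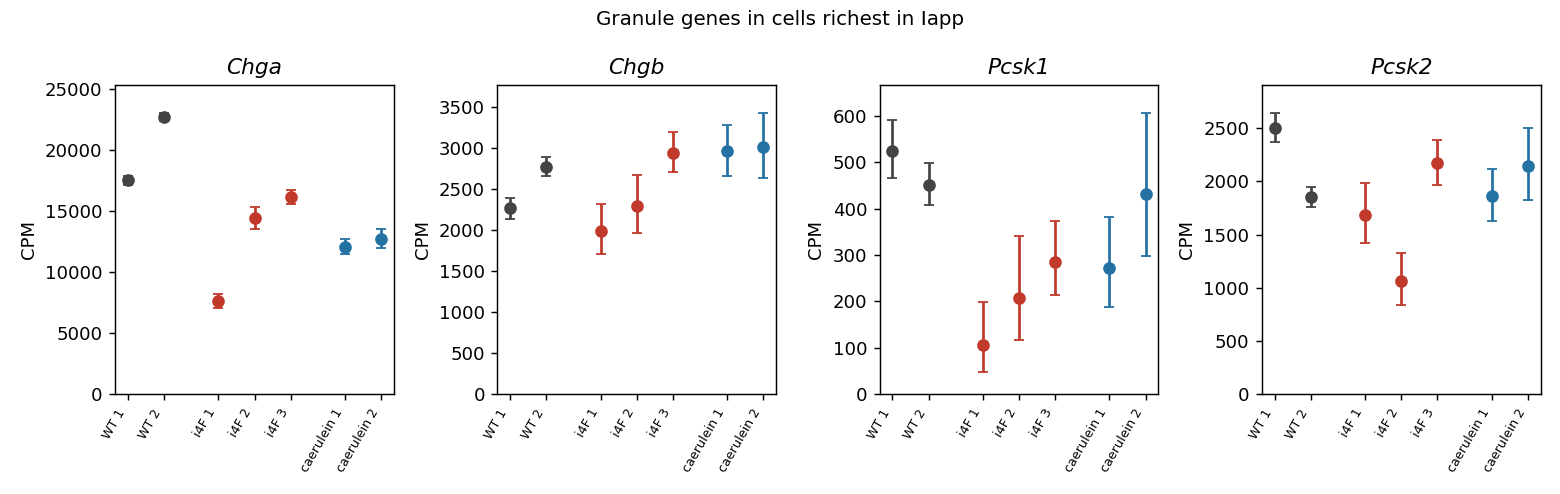
Granule genes in cells richest in Iapp, in CPM on linear axes from 0, with 1 point per mouse and exact 95% Poisson intervals that cover counting error only. Pcsk1 lies at 525 and 451 CPM in WT and at 105 to 286 CPM in the i4F mice, with the widest relative interval in i4F 1 (9 UMIs), and Pcsk2 overlaps between the groups.

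Other genes of the same cells were counted from the lists, among the genes past the filter on low counts. Of 15 genes of granules and exocytosis, 5 were below both WT mice in every i4F mouse, 2 above (Ptprn2 and Syt7) and 8 overlapping. In caerulein 7 were below, 1 above (Syt7) and 7 overlapping. Of 7 islet transcription factors, 2 were below in i4F, and 3 below and 1 above (Pax6) in caerulein, while Neurod1 overlapped in both. Of 4 genes of beta cell metabolism and secretion, 2 were below in i4F and 1 in caerulein. These counts stand beside the 14.2 and 23.0% of all genes tested that lay below WT in every i4F and every caerulein mouse, and the 13.2 and 21.7% that lay above. Slc2a2, Pdx1 and Scg2 were chosen for display after their values were seen. Slc2a2, the glucose transporter GLUT2, was at 633 and 668 CPM in WT, at 58.1, 138 and 344 CPM in i4F, and at 444 and 131 CPM in caerulein. Pdx1, a transcription factor of beta cells, was at 327 and 359 CPM in WT, at 93.0, 82.8 and 222 CPM in i4F, and at 313 and 235 CPM in caerulein. Scg2 was at 7463 and 7476 CPM in WT, at 2103, 3614 and 6484 CPM in i4F, and at 4829 and 4262 CPM in caerulein. These values are a description, and no gene of the lists was called in hormone-rich or endocrine-cluster cells.

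Markers of other cells were present in these cells at levels that differed between mice. The 4 macrophage markers (Lyz2, Csf1r, Adgre1, C1qa) summed to 152 and 488 CPM in hormone-rich cells of WT, to 438, 2979 and 129 CPM in i4F, and to 2475 and 2865 CPM in caerulein. Adgre1 was at 0 in WT 1, i4F 1 and i4F 3, and Csf1r and Lyz2 were at 0 in WT 1. Stellate cell markers (4 genes) summed in hormone-rich cells to 260 and 705 CPM in WT, to 4239, 974 and 18.5 CPM in i4F, and to 867 and 1595 CPM in caerulein. In the endocrine clusters they summed to 581 and 768 CPM in WT, to 2684, 739 and 301 CPM in i4F, and to 745 and 1513 CPM in caerulein. Ductal markers (6 genes) summed in hormone-rich cells to 1070 and 1912 CPM in WT, to 1865, 2145 and 1099 CPM in i4F, and to 2186 and 1595 CPM in caerulein. Their part in the levels of the granule genes was not tested.

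The genes with the highest fold change among those called in hormone-rich cells were not hormone or granule genes. In i4F they were Reg3a, Reg3g and Reg3b, which encode secreted lectins of injured or inflamed pancreas, the metallothionein Mt1 and the activity-regulated transcription factor Npas4. Reg3b was at 60.1 and 5.50 CPM in WT and at 2547, 1437 and 2978 CPM in i4F, beside 1423 and 825 CPM in caerulein, with a log2 fold change of i4F against WT of 6.19 (SE 0.87, edgeR adjusted p = 0.0367). Mt1 was at 1085 and 999.6 CPM in WT and at 7020, 9853 and 3456 CPM in i4F, beside 3061 and 2094 CPM in caerulein, with a log2 fold change of 2.66 (SE 0.42, adjusted p = 0.0492). In caerulein they were Gm2663, Pf4, Reg3g, Ctss and Lgmn, of which Pf4 was at 0 and 1.80 CPM in WT and at 1126 and 684 CPM in caerulein. Ctss and Lgmn are lysosomal proteases that macrophages express strongly, and the macrophage marker sums are given above. Whether RNA of any of the called genes, the Reg3 genes included, came from other cells was not tested.

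Outside the endocrine clusters Iapp was found at low levels in most cell types, and these levels differed between the mice. Its median over the other clusters of a mouse was 3.52 to 112 CPM, whereas the median was 0 for Sst in i4F 2 and both caerulein mice and for Ppy in i4F 2 and caerulein 1. In cells that were neither in an endocrine cluster nor hormone-rich, Iapp was at 97.8 and 101 CPM in WT, at 2.75, 5.34 and 75.5 CPM in i4F, and at 5.28 and 3.12 CPM in caerulein. In the clusters deposited as B lymphocytes, a cell type that should lack it, Iapp was at 64.8 and 64.3 CPM in WT, at 4.66, 9.89 and 108 CPM in i4F, and at 6.62 and 0 CPM in caerulein. In these clusters i4F 3 was thus highest and the WT mice came next. Over all non-endocrine cells, the 3 B cell markers summed to 58.2 and 68.4 CPM in WT and to 34.2, 20.1 and 579 CPM in i4F. They summed to 3.28 and 2.82 CPM in caerulein. These sums are not of the cluster itself, and whether the cluster deposited under that name holds B cells was not tested. The number of Iapp UMIs per Chga UMI in the endocrine clusters was 8.78 and 5.75 in WT, 8.15, 3.86 and 7.33 in i4F, and 10.2 and 10.3 in caerulein. In the other cells it was 10.7 and 6.91 in WT, 6.15, 4.47 and 6.91 in i4F, and 10.3 and 10.6 in caerulein. The order of the i4F mice differed between the 2 bases. The value of i4F 1 in the other cells rests on only 166 Iapp and 27 Chga UMIs. In acinar cells that were not hormone-rich the ratio was 11.2 and 6.30 in WT and 1.11, 0.958 and 10 in i4F. Those of i4F 1 and i4F 2 rest on 10 and 23 Iapp UMIs, and Chga had 0 UMIs there in caerulein. The part of RNA from endocrine cells in these ratios was not tested.

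In acinar cells Iapp was at 512 and 515 CPM in WT, at 2.83, 5.15 and 118 CPM in i4F, and at 5.43 and 9.5 CPM in caerulein. The median depth of acinar cells was 431 and 502 UMIs in WT, 1933, 2020 and 606 UMIs in i4F, and 2213.5 and 1322.5 UMIs in caerulein. WT 1, WT 2 and i4F 3 thus had the shallowest acinar cells and the highest Iapp, and the part of depth in these levels was not tested. Chga was at 45.6 and 82.0 CPM in WT and at 2.55, 5.37 and 11.8 CPM in i4F, and it had 0 UMIs in both caerulein mice, where 3 counts would be 0.509 and 1.24 CPM. Of the 6 genes tested there, edgeR called none in either comparison, where 0.0449% of 11134 genes were called lower in i4F (0.0808% in either direction) and 0.0359% in caerulein, all of them lower. Ppy, Chgb and Pcsk1 reached the level that the filter on low counts asks of 2 mice only through WT, where they were high, so their tests are not read. Sst, Iapp and Chga had an unadjusted p under 0.05 in both comparisons, beside 2796 genes in i4F and 2443 in caerulein, and an adjusted p of 0.0971 to 0.189 in i4F and of 0.0610 to 0.208 in caerulein. Of these 3, DESeq2 called Sst and Chga in i4F, beside 892 genes, and Chga in caerulein, beside 907 genes. As a description, edgeR without i4F 3 called all 3 in i4F, beside 3629 genes, and Iapp and Chga in caerulein, beside 2151 genes, and without i4F 1 it called Chga in caerulein, beside 301 genes. Removing hormone-rich cells from the acinar clusters moved the ratio of the WT mean to the i4F mean of Sst from 28.7 to 5.60, and to the caerulein mean from 7.15 to 29.1, since WT 2 and caerulein 2 each held 1 such cell richest in Sst. The part of RNA from endocrine cells in these levels was not tested, and the values of Iapp in the clusters deposited as B lymphocytes are those given above.

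In ductal cells 2 of the 7 genes, Iapp and Chga, passed the filter on low counts. Iapp was at 56.2 and 366 CPM in WT, at 8.23, 11.1 and 39 CPM in i4F, and at 4.03 and 3.69 CPM in caerulein. Chga passed the filter only through WT. In caerulein Iapp fell by 5.59 on the log2 scale (SE 1.15, edgeR adjusted p = 0.0407), the only call among the 2 genes that passed, where 0.645% of 11619 genes were called lower and 3.53% in either direction. WT 2 held 2 hormone-rich cells in its ductal clusters, and without them Iapp in WT 2 was at 56.6 CPM and the ratio of the WT mean to the i4F mean moved from 10.9 to 2.90. Without hormone-rich cells the fall in Iapp in caerulein was 3.60 (adjusted p = 0.0371). The call was lost without any 1 of WT 1, WT 2, i4F 2, caerulein 1 and caerulein 2, with adjusted p of 0.0802 to 0.331, and also with the library name series as a term (adjusted p = 0.178). In i4F neither gene was called, where 0.0% of genes were called lower and 0.00861% in either direction. Iapp had an unadjusted p under 0.05, beside 2016 of all genes. DESeq2 called it, beside 373 genes, and so did edgeR without i4F 3, beside 2966 genes. Here too the part of RNA from endocrine cells was not tested.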

How the data were processed

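The authors made the counts with Cell Ranger on mm10 from 10x 3′ libraries and deposited 1 table of UMI counts per gene and cell for each condition, with a cluster label per cell. Per the methods of the study, cells were clustered separately by condition in Seurat after correction for free RNA and removal of cells with few genes or much mitochondrial RNA, and whether the deposited counts precede or follow that correction is not given in the sources used here. Clusters were used as deposited, some names having lost characters, and doublets were kept. UMIs were summed per mouse and cell class, so the mouse is the replicate, and CPM are per 1000000 UMIs of the class. Sums were tested with edgeR 4.0.16 (R 4.3.3, TMM, low-count filter filterByExpr, quasi-likelihood test, two-sided, all 7 mice in 1 fit of 3 groups, at least 20 cells per mouse, 10 for hormone-rich cells), and genes with an adjusted p under 0.05 over all genes tested were called. DESeq2 1.42.0, no TMM, no filter, a fit of 2 groups, the library name series as a term, a block by replicate, cells with at least 500 genes, other thresholds and leaving out each mouse were the alternatives. The endocrine clusters as a class, cells richest in Iapp and classes without hormone-rich cells were added after seeing the data. The test was checked on simulated counts. Shares were compared by exact permutation with scipy 1.17.1. The genes, lists and markers were chosen with earlier results of these data known, and genes are named from those lists, by likeness, or as the 5 highest folds among genes called in hormone-rich cells. Gcg was not analysed here. Some genes of the lists are not reported by name here. Ranges of depth are in the report: totals of 15469018 to 64784216 UMIs limit low genes such as Pcsk1.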

Additional observations from a re-analysis of the deposited data

How the results depend on the processing

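Counts of members called lower are given here with the number of all genes called in the same fit in brackets. Over all cells they were, in i4F, 2 with DESeq2 (4351), 1 with no filter on low counts (2076) and 0 to 7 when 1 mouse was left out (9543 without i4F 3). In caerulein they were 4 (5484), 2 (2830), and 0 to 6 (8909), and 6 in a fit of the 2 groups (8024). In acinar cells they were 3 (892), 4 (2004) and 0 to 6 (3629) in i4F, and 3 (907), 6 (1505) and 0 to 4 (2151) in caerulein, with 3 in a fit of the 2 groups (2030) and 1 in cells with at least 500 genes (16). The acinar fits also tested Ppy, Chgb and Pcsk1, which passed the low-count filter only through WT, and without the filter genes that failed it. The acinar counts are therefore not read as results. In ductal cells they were 1 (373), 4 (1311) and 0 to 1 (2966) in i4F, and 2 (1139), 6 (2526) and 0 to 2 (3601) in caerulein, with 0 when the library name series was a term (0). Ductal counts above 1 include Chga, which passed the low-count filter only through WT, or genes that failed it, and are not read as results. In endocrine clusters they were 3 with no filter (277) and 0 to 2 (184) in i4F, and 1 (261) and 0 to 1 (63) in caerulein, with 1 in a fit of the 2 groups (87). In hormone-rich cells no filter gave 1 granule gene in i4F (183).

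Replicate numbers are shared by the groups but nothing in the labels pairs the mice, and the correlations of deviations of same-numbered mice were -0.037 and -0.019 (WT and i4F) and -0.369 (WT and caerulein). With a replicate block, which leaves i4F 3 without a partner, 7 (8138) and 7 (7426) members were called over all cells in i4F and caerulein, 6 (3294) and 5 (1861) in acinar cells, 1 (2232) and 2 (2735) in ductal cells, 2 (121) and 1 (59) in endocrine clusters, and 0 granule genes (38 and 26) in hormone-rich cells. The acinar counts and the ductal count of 2 again include genes that passed the low-count filter only through WT, and they are not read as results.

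The shares of hormone-rich cells kept their direction in all 13 and 12 alternatives. Left out 1 mouse at a time, the differences were -1.65 to -1.25 percentage points for i4F and -1.66 to -1.07 for caerulein.

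Of 52 log2 fold changes of single genes, 6 changed sign under some alternative, in 29 of 748 alternative values and none of them called. For caerulein in hormone-rich cells, Chgb (0.00084) was -0.018 without TMM, -0.24 with no filter, -0.028 with the series term and -0.063 to 0.021 when 1 mouse was left out, and Pcsk2 (-0.083) was 0.19 with the series term and -0.33 to 0.17. For caerulein in endocrine clusters, Chgb (0.025) was -0.0021 without TMM, -0.17 with no filter, -0.054 with the series term and -0.073 to 0.098. Iapp (0.0058) was -0.023 without TMM, -0.19 with no filter, -0.0035 in a fit of the 2 groups and -0.087 to 0.030. Ppy (0.41) was -0.14 with the replicate block and -1.60 to 1.08, and in i4F Ppy (-0.39) was -1.75 to 0.067.

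Leaving out TMM moved the median of all genes over all cells by -0.38 in i4F and -0.39 in caerulein, by 0.18 and 0.59 in acinar cells and by -0.17 and -0.18 in ductal cells. With 2 or 3 mice per group and 9 to 397 Pcsk1 UMIs per mouse in hormone-rich cells, small differences were not detectable.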

Other observations

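Pcsk1n, which encodes proSAAS, an inhibitor of PC1/3, differed between mice of a group more than the 7 genes did within the endocrine clusters of WT. It was at 163 CPM in WT 1 and 4232 CPM in WT 2, at 1672, 1698 and 3263 CPM in i4F, and at 3324 and 603 CPM in caerulein. In cells richest in Iapp it was at 109 and 2813 CPM in WT, at 1906, 1310 and 2412 CPM in i4F, and at 2361 and 614 CPM in caerulein. Its level was thus low in WT 1 and caerulein 2, which belong to different library name series, and Pcsk1 in the same cells was close in both WT mice (525 and 451 CPM).

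Pcsk1 was also counted in acinar cells of every mouse, at 4, 4, 3, 1, 4, 12 and 2 UMIs in WT 1, WT 2, i4F 1, i4F 2, i4F 3, caerulein 1 and caerulein 2. Pcsk2 had 1, 7, 3, 6, 8, 0 and 1 UMIs there. Acinar cells summed to 767407 UMIs in WT 1 and to 5893070 UMIs in caerulein 1, so the counts cannot be compared between mice. Mean acinar Pcsk1 was 5.05 CPM in WT, 0.820 CPM in i4F and 1.43 CPM in caerulein. In caerulein 1 Pcsk1 had 12 UMIs where Pcsk2 and Chga had 0. These are single counts with no test.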
